A study of Homo sapiens
Mus musculus with 8 samples.

Results

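The genes of oxidative phosphorylation were followed in single-cell RNA-seq libraries of a mixture of lymphocyte cell lines. Members were all features whose symbol, after the species prefix and ignoring case, begins with mt-, with Nduf and A, B, C, S or V, with Cox and a digit from 4 to 8, with Uqcr, or with Atp5 and a further letter or digit. The rule found 211 of the 60736 features of the combined human and mouse reference. Of these, 101 were mouse genes, 13 encoded in mitochondrial DNA and 88 in the nucleus, and 110 were human, 13 mitochondrial and 97 nuclear. The nuclear members comprised subunits of complex I (36 mouse, 39 human), complex III (8 and 9), complex IV (19 and 18) and complex V (15 and 15), 10 assembly or associated factors in each species and, in human, 6 read-through, antisense or copied genes. NDUFB8, UQCR11 and NDUFA7 each held a pair of human identifiers, and reads of genes with close pseudogene copies may have been split or lost, so their levels are uncertain.

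Oxidative phosphorylation is the process by which mitochondria pass electrons from NADH through complex I (NADH dehydrogenase), complex III (cytochrome bc1) and complex IV (cytochrome c oxidase) to oxygen, pumping protons that drive complex V (ATP synthase). Complexes I, III, IV and V are each built from subunits of both genomes, since mitochondrial DNA encodes a few core subunits and the nucleus encodes all others together with the factors that assemble them. Complex II has no mitochondrially encoded subunit and lies outside the rule. In lymphocytes, respiratory activity is known to differ between resting, proliferating and memory states, and the mitochondrial share of transcripts is widely used in single-cell work as a sign of damaged cells.

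The mixture held 4 established lines in equal parts and was not treated. By the study's methods each line had its own culture medium, and that of TALL-104 held IL-2, so differences between lines cannot be told apart from differences in culture. From mouse it held EL4, a CD4+ T cell line, and IVA12, a B cell line, and from human the T cell lines Jurkat, which is CD4+, and TALL-104 (TALL104 in the labels), which is CD8+. Mixtures were captured with the Chromium 3′ v3 kit (3p v3, 4 libraries), the 5′ v1 kit (5p v1, 2 libraries) and the 3′ v2 kit (3p v2, of which replicate 2 was analysed), and messenger RNA was counted from its 3′ or its 5′ end as unique molecular identifiers (UMIs), each standing for a captured molecule. The preparation of the mixture behind each library was taken from the study's sample summary. 3p v3 replicates 1 and 3 came from one preparation and replicates 2 and 4 from another, here called the first and the second preparation, and each other kit had a preparation of its own, so kit and preparation cannot be told apart outside 3p v3. Libraries of a preparation share their cell suspension, so p-values over libraries measure a spread that may be partly technical.

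Library depth ranged from 24790710 to 251164949 UMIs. Barcodes with at least 1000 UMIs, more than 80% of them from one species, were clustered and 26625 were named from marker genes: 8934 EL4-like, 5984 IVA12-like, 8601 Jurkat-like and 3110 TALL-104-like, called below by the line. In each named cluster, 11 to 26 of the line's own markers lay above the other line's clusters by a fixed factor. At most 7 of the other line's markers did so, and 3405 barcodes of one species stayed unnamed. Named cells drew a median of 0.0304 to 4.13% of their UMIs from the other species. The thinnest groups were TALL-104 in 5p v1, with 76 and 41 cells, and in 3p v2, with 52. A total of 60 named barcodes occurred in more than 1 library.

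The mitochondrial share of a cell, that is the percent of its own-species UMIs that came from the 13 mitochondrially encoded genes, differed between libraries of each line. In Jurkat its median was 6.400, 10.2, 4.89 and 10.6% in 3p v3 replicates 1 to 4, 4.84 and 5.78% in 5p v1 and 3.02% in 3p v2. In both libraries of the second preparation most Jurkat cells reached 10%, namely 54.0% of 313 and 59.3% of 964, against 3.54% of 1609 and 0.716% of 3353 in the first. Many of these cells lay near that limit, as 36.7 and 32.1% of the cells in the second preparation had shares from 9 to 11%. In TALL-104 the medians were 8.26, 9.34, 5.46 and 10.04% in 3p v3 replicates 1 to 4, 2.18 and 3.299% in 5p v1 and 3.86% in 3p v2.

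The mouse lines spanned a narrower range. EL4 medians were 5.71, 6.596, 4.304 and 6.83% in 3p v3 replicates 1 to 4, 4.43 and 4.89% in 5p v1 and 2.07% in 3p v2. IVA12 medians were 6.203, 6.68, 4.61 and 7.24% in 3p v3 replicates 1 to 4, 5.095 and 5.95% in 5p v1 and 3.51% in 3p v2, and lay above those of EL4 in each of the 7 libraries. The second preparation was above the first in every line. In IVA12 the upper quartile in 3p v2 reached 16.03%, as 44.3% of its 192 cells were at or above 10%, with a median of 5818 UMIs against 28419 in the cells below. Droplets with under 100 UMIs, which hold mostly free RNA, had mitochondrial shares of 0.230 to 6.60% for mouse and 3.37 to 10.8% for human UMIs. The part of free RNA in these shares was not tested.

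**Figure D1:**
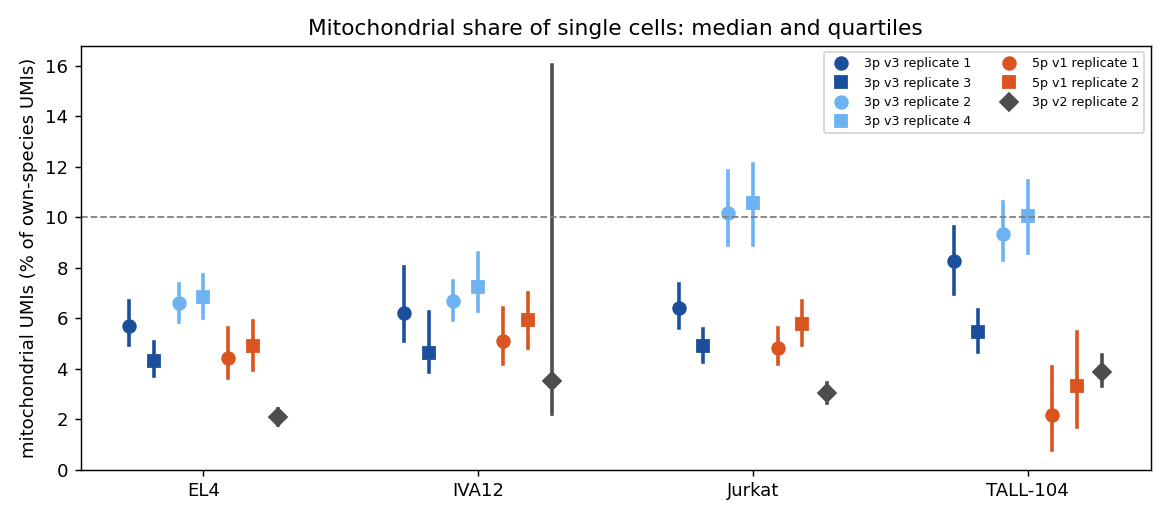
Mitochondrial share of own-species UMIs per cell (y axis, percent) for each line (x axis) and library (colour and marker); points are medians, bars the lower to upper quartile and the dashed line 10%. Jurkat medians in 3p v3 replicates 2 and 4 lie at 10.2 and 10.6%, above the other 5 Jurkat libraries, which lie between 3.02 and 6.40%.

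Within the mitochondrial UMIs, the lines of each species differed in single transcripts of complexes III, IV and V. The leading transcript was mt-Atp6 in all 7 IVA12 libraries and the 4 3p v3 libraries of EL4, mt-Co1 in the other 3 of EL4, MT-CO2 in all 7 Jurkat libraries and MT-CO1 or MT-CO2 in TALL-104. These values are percents of the mitochondrial UMIs of all named cells and are given as a description, since the shares of one library sum to a fixed total. mt-Co1, the catalytic core of complex IV, took 15.8, 18.3, 15.6 and 17.9% in the 3p v3 libraries of EL4, 25.3 and 25.1% in 5p v1 and 22.6% in 3p v2. In IVA12 it took 9.62, 12.2, 9.95 and 11.9%, 11.2 and 11.4% and 13.8%. EL4 was above IVA12 in each library and the ranges did not overlap. mt-Cytb, the mitochondrial subunit of complex III, went the other way, at 6.28 to 10.7% in EL4 and 11.4 to 16.9% in IVA12. The same held for mt-Atp6, the proton channel subunit of complex V, at 17.8 to 18.96% in EL4 and 20.7 to 25.9% in IVA12. mt-Co3, another core subunit of complex IV, was higher in EL4 in each of the 7 libraries although the ranges overlapped, at 11.6 to 18.6% against 8.51 to 13.4%. As a percent of all own-species UMIs, mt-Co1 and mt-Co3 were higher in EL4 in 6 of the 7 libraries and lower in 3p v2, and mt-Cytb and mt-Atp6 kept their order in all 7.

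Between the human lines, MT-CO1 took 22.7, 25.6, 23.4 and 23.3% in the 3p v3 libraries of TALL-104, 28.7 and 21.1% in 5p v1 and 22.6% in 3p v2. In Jurkat the range was 11.5 to 18.5%, below every TALL-104 library. As a percent of all own-species UMIs MT-CO1 was higher in TALL-104 in the 3′ libraries, but in 5p v1 it was 0.885 and 1.04% in Jurkat against 0.862 and 0.935% in TALL-104. MT-ND6, the complex I subunit encoded on the opposite strand to the other members, was higher in Jurkat, at 0.956 to 2.12% against 0.213 to 0.712% in TALL-104. Its mouse counterpart mt-Nd6 was among the lowest members, at 0.0539 to 0.135% in EL4 and 0.0885 to 0.524% in IVA12. Counts of MT-ND6 depend on how strand was used in counting, which is not given in the sources used here. The other complex I subunits encoded by mitochondria, MT-ND1, MT-ND2 and MT-ND4, lay at 3.51 to 7.17%, 2.81 to 9.12% and 4.49 to 11.04% in Jurkat and at 2.698 to 5.58%, 1.88 to 5.55% and 5.101 to 7.98% in TALL-104. For these the ranges of the lines overlapped. The remaining human members were MT-CO2 at 16.9 to 24.00% in Jurkat and 16.5 to 24.5% in TALL-104, MT-CO3 at 11.6 to 17.2% and 11.1 to 16.4%, MT-CYB at 6.54 to 10.9% and 5.94 to 9.76%, and MT-ATP6 at 9.51 to 13.9% and 6.08 to 11.9%. MT-CYB and MT-ATP6 were higher in Jurkat in each of the 7 libraries, with overlapping ranges, but as a percent of all own-species UMIs in 5 and 6 of the 7.

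Some short members differed widely between the kits. MT-ND3, a small core subunit of complex I, took 5.56, 6.34, 9.08 and 6.71% of mitochondrial UMIs in the 3p v3 libraries of Jurkat and 6.21, 5.56, 10.7 and 5.76% in those of TALL-104. In 5p v1 it took 1.76 and 1.36% and 1.85 and 1.24%. MT-ND4L showed the opposite order, with 0.298, 0.396, 0.826 and 0.420% in the 3p v3 libraries of Jurkat and 4.23 and 4.58% in 5p v1, and in TALL-104 0.163, 0.179, 0.529 and 0.206% against 4.64 and 5.28%. Neither pair of ranges overlapped. The kits were also tested relative to nuclear-encoded RNA, in cells with a mitochondrial share under 10%, a limit that used these same genes. In Jurkat it left out 3.54, 54.0, 0.716 and 59.3% of cells in 3p v3 and 0.990 and 4.91% in 5p v1. In TALL-104 it left out 20.2, 35.8, 0.404 and 50.6%, and 1.32 and 2.44%. edgeR's quasi-likelihood test with Benjamini-Hochberg adjustment gave log2 fold changes of 3p v3 against 5p v1 of 2.43 and 3.32 for MT-ND3 (adjusted p = 0.0023 and 0.000695) and −2.88 and −3.23 for MT-ND4L (adjusted p = 0.0026 and 9e-05), in Jurkat and TALL-104. MT-ND5, a large complex I subunit, was likewise higher in 5p v1, at 3.01 and 3.08% in Jurkat and 2.33 and 2.79% in TALL-104, than in 3p v3, at 1.54 to 1.97% and 0.987 to 1.86%, whereas as a percent of all own-species UMIs its ranges in the kits overlapped in both lines. ND4L overlaps ND4 and ATP8 overlaps ATP6 on shared transcripts, so end counting could assign their reads to either neighbour, and the levels of these pairs are uncertain.

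In the mouse lines the same members also moved between 3p v3 libraries. mt-Nd4l took 0.861, 0.436, 2.78 and 0.481% in 3p v3 replicates 1 to 4 of EL4 and 3.22 and 3.09% in 5p v1, so replicate 3 lay near 5p v1. mt-Atp8 behaved alike in EL4, at 0.108, 0.234, 0.798 and 0.240% against 1.102 and 1.11%. Its human counterpart had 0.0693, 0.139, 0.512 and 0.156% in the 3p v3 libraries of Jurkat and 0.0465, 0.113, 0.362 and 0.110% in those of TALL-104. Replicates 1 and 3 share a preparation, and replicate 3 was the deepest library and held 1896 barcodes of mixed species against 295 in replicate 1. What part depth or mixed barcodes had in this was not tested. Other members separated the preparations: mt-Nd3 was 1.11, 2.36, 1.02 and 2.38% in EL4, mt-Nd1 was 6.89, 9.54, 6.82 and 9.81% and mt-Cytb was 9.66, 6.31, 10.7 and 6.28%, so that replicates 2 and 4 lay together and apart from replicates 1 and 3. The remaining mouse members were mt-Nd2 at 2.06 to 4.46% in EL4 and 2.58 to 4.32% in IVA12, mt-Nd4 at 4.31 to 5.89% and 3.26 to 4.45%, mt-Nd5 at 0.632 to 1.805% and 0.587 to 1.45%, and mt-Co2 at 12.1 to 18.7% and 12.5 to 23.5%, lower in EL4 in each library.

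**Figure D2:**
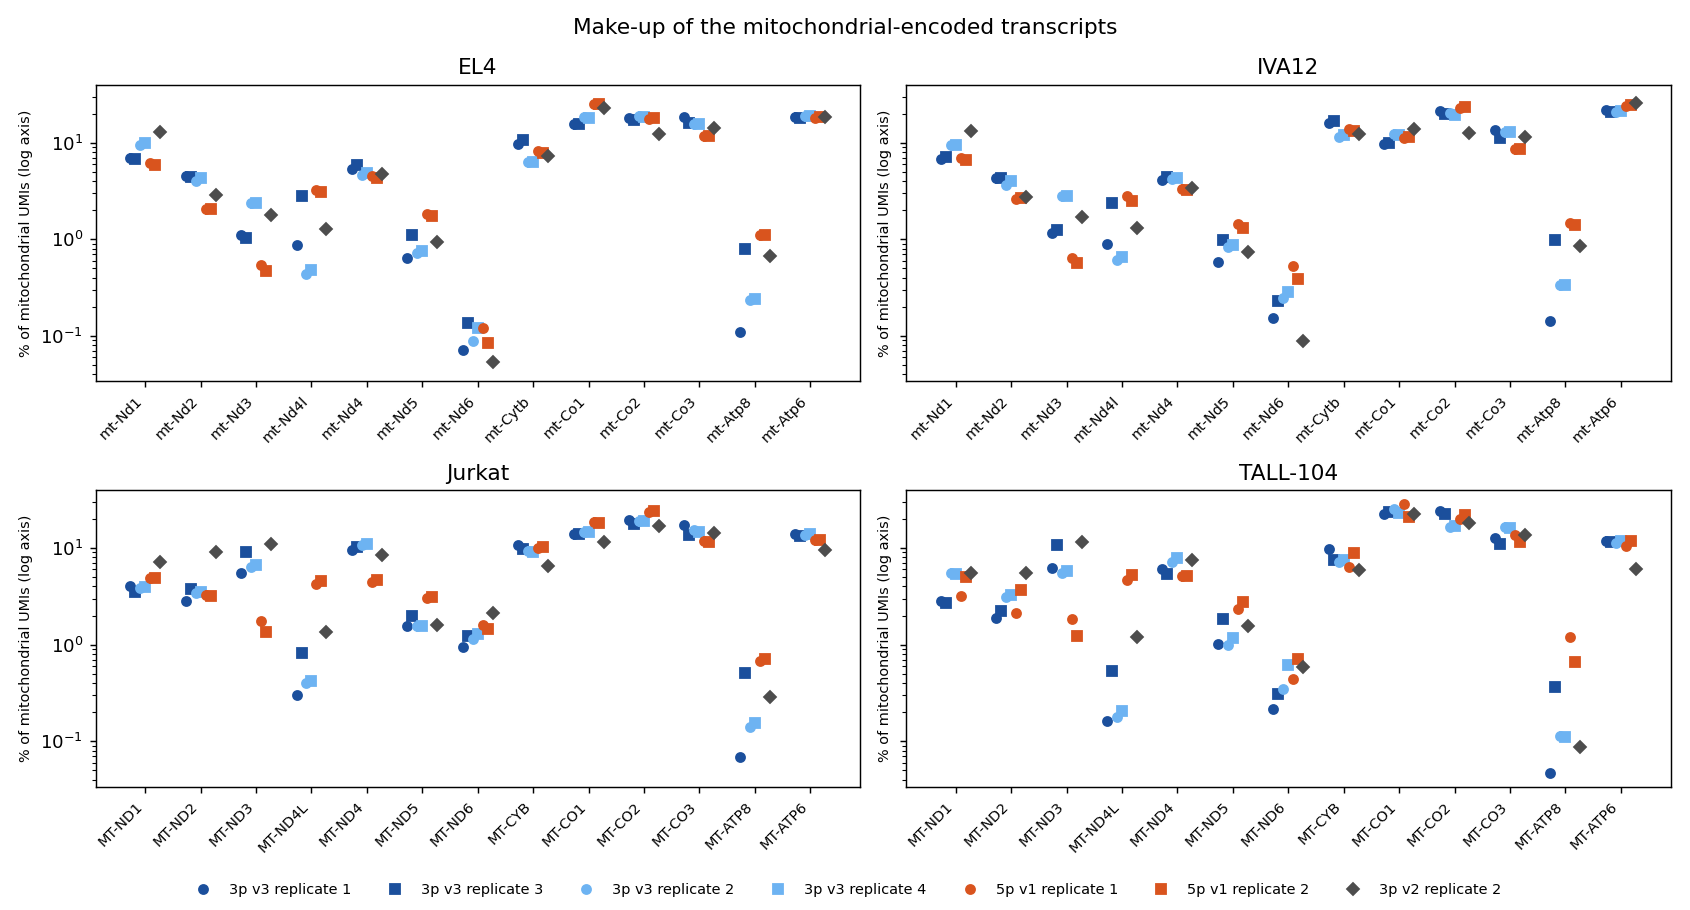
Percent of mitochondrial UMIs (y axis, log scale) taken by each of the 13 mitochondrially encoded genes (x axis) in the 4 lines, with 1 point per library. MT-ND4L lies at 0.163 to 0.826% in the 3p v3 libraries of the human lines and at 4.23 to 5.28% in 5p v1, while mt-Nd1 and mt-Nd3 of EL4 split 3p v3 replicates 1 and 3 from 2 and 4.

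Nuclear-encoded members were measured on sums of the cells of a line in a library with a mitochondrial share under 10%, as UMIs per 1000000 nuclear-encoded UMIs of the species (CPM). Ends of transcripts are counted once, so these levels are not divided by gene length, and levels of different genes also carry how well each end was captured. At least 50 CPM in a line and library were reached by 75 of 88 mouse and 77 of 97 human nuclear members, and 1 mouse and 4 human members had no UMI. By the mean over libraries, Cox8a of complex IV and Atp5g2, which encodes the c subunit of the ATP synthase ring, led their complexes in both mouse lines, and COX7C and ATP5E, the epsilon subunit of ATP synthase, in both human lines. The order changed between libraries. Cox8a was highest in 2 of 7 libraries of EL4 and 6 of 7 of IVA12, Atp5g2 in 5 and 6, COX7C in 4 of Jurkat and 2 of TALL-104, and ATP5E in 5 of each. Cox8a ranged over 1314 to 2275 CPM in EL4 and 929 to 1763 in IVA12, and Atp5g2 over 849.6 to 1718 and 1125 to 2174. ATP5E ranged over 496 to 3174 CPM in Jurkat and 462 to 4562 in TALL-104, with the top of each range in 3p v2. Uqcrq of complex III led by the mean in both mouse lines and in 7 and 5 of their libraries, at 497 to 1719.9 and 627 to 1726 CPM, against UQCRH, the hinge protein, in Jurkat and UQCRB in TALL-104. For complex I the member with the highest mean was Ndufb9 in EL4, Ndufs5 in IVA12, NDUFS5 in Jurkat and NDUFB2 in TALL-104, which were highest in 4, 5, 7 and 3 of the 7 libraries.

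Summed over all nuclear members, both mouse lines lay above Jurkat, and Jurkat above TALL-104, in each of the 7 libraries. In EL4 the sum was 38234, 31439, 40566 and 30878 CPM in the 3p v3 libraries, 27196 and 23738 in the 5p v1 libraries and 49503 in the 3p v2 library. In IVA12 it was 38454, 26887, 39480.3 and 26009 CPM in the 3p v3 libraries, 34964 and 32707 in the 5p v1 libraries and 43074 in the 3p v2 library. The order of EL4 and IVA12 differed between libraries, with ratios of EL4 to IVA12 of 0.994, 1.17, 1.03 and 1.19 in 3p v3, 0.778 and 0.726 in 5p v1 and 1.15 in 3p v2. In Jurkat the sum was 31076, 20548, 31556 and 19844 CPM in the 3p v3 libraries, 25049 and 22971 in the 5p v1 libraries and 40674 in the 3p v2 library. In TALL-104 it was 22778, 16751, 23978 and 16428 CPM in the 3p v3 libraries, 17808 and 18772 in the 5p v1 libraries and 34514 in the 3p v2 library. Jurkat was above TALL-104 in each library, with ratios from 1.18 to 1.41. Sums and shares of this kind get no p here, because the members were chosen with results known. Human and mouse sums rest on different gene sets and references, so their distance is given as values only.

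**Figure D3:**
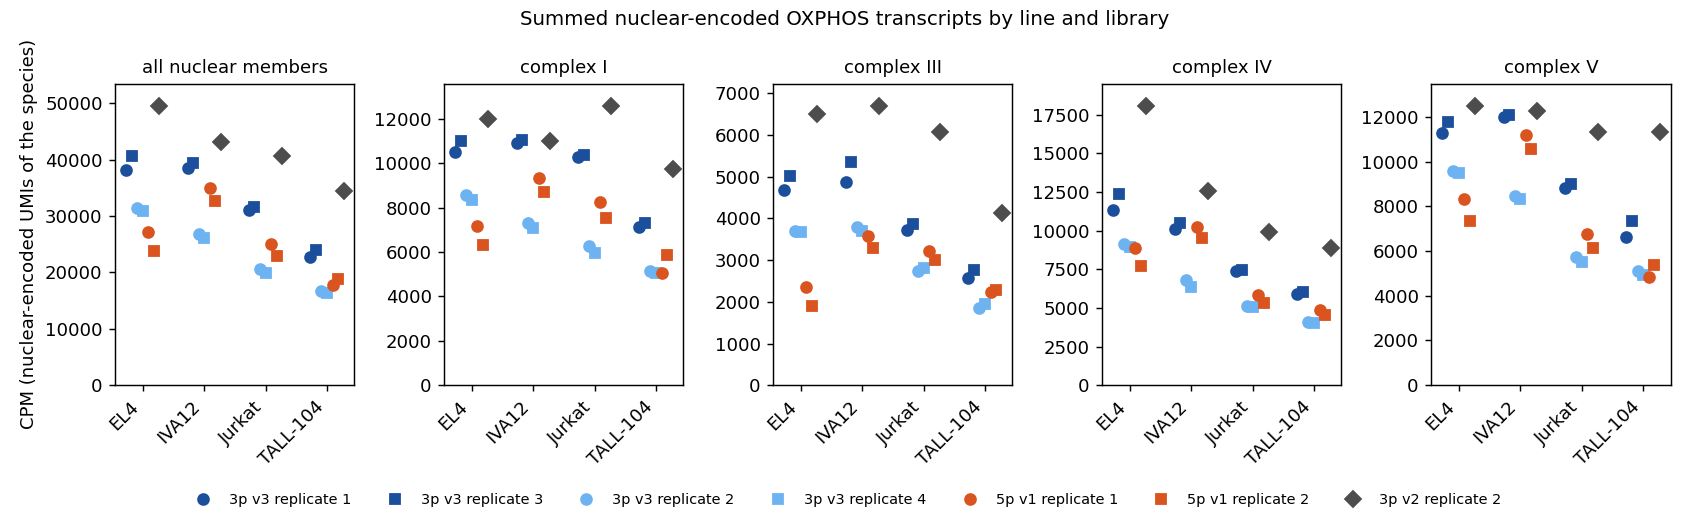
Summed level of nuclear-encoded members in CPM (y axis, from 0), for all nuclear members and for complexes I, III, IV and V, by line (x axis) and library (colour and marker). The first preparation of 3p v3 (replicates 1 and 3) lies above the second (replicates 2 and 4) in every line, and complex III of EL4 is lowest in 5p v1, at 2355 and 1889 CPM.

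The preparations of 3p v3 differed in these genes in every line. Both libraries of the first preparation were above both of the second in 65 of 83 tested nuclear members in EL4, 76 of 85 in IVA12, 69 of 87 in Jurkat and 60 of 80 in TALL-104. Over all nuclear-encoded genes tested that pattern was held by 21.6% in EL4, 28.2% in IVA12, 23% in Jurkat and 16.6% in TALL-104. The reverse pattern was held by 7, 6, 9 and 6 members, against 59%, 55.9%, 56.7% and 53.3% of all genes. The median log2 difference of members, first minus second, was 0.34, 0.61, 0.62 and 0.43, against −0.29, −0.27, −0.42 and −0.43 over all genes. Uqcrb, a small subunit of complex III, had 408 and 405 CPM in the first preparation of IVA12 and 138 and 152 in the second. NDUFAF4, an assembly factor of complex I, had 125 and 105 in Jurkat in the first and 39.5 and 33.3 in the second. Both genes were picked here for the size of this difference after their values were seen. NDUFS1, the largest core subunit of complex I, was among the few members that went the other way in all lines. With 2 libraries a preparation no test was made.

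Between the mouse lines, nuclear members moved in both directions. With the library as a block, edgeR's quasi-likelihood test with Benjamini-Hochberg adjustment over all genes called 24 of 85 tested members higher and 27 lower in EL4 than in IVA12, or 51 in all. Over all nuclear-encoded genes 77% were called and 38.1% were called higher, so the share of members called (60.0%) was below the background. The median log2 fold change was −0.03 for members and −0.02 for all genes. Complex I had 12 members higher and 8 lower of 36, complex III 2 and 3 of 8, complex IV 4 and 7 of 16, complex V 3 and 5 of 15, and the assembly factors 3 and 4 of 10. The 7 lower members of complex IV, and so the 27 in all, include 5 tissue-restricted isoforms. For 4 of these isoforms the filter on low counts set the direction, as described below. Without scaling factors the split was 21 higher and 30 lower, and with libraries of one preparation summed it was 23 and 13.

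Complex III held the largest opposite changes among ubiquitous subunits. Uqcrb had a lowest, median and highest level of 238, 343 and 832 CPM over the 7 EL4 libraries and 137, 168 and 408 over those of IVA12. It was above IVA12 in every library, with a log2 fold change of 1.18 ± 0.08 (SE) (edgeR adjusted p = 5.99e-07). Uqcrfs1, the Rieske iron-sulfur protein that passes electrons within complex III, had 122, 161 and 191 CPM in EL4 and 267, 388 and 544 in IVA12. Here EL4 was lower in every library, by a log2 fold change of −1.19 ± 0.07 (SE) (edgeR adjusted p = 2.94e-07). Uqcr10, a small subunit, also fell, at 268, 504 and 1444 against 650.2, 759 and 1800.3 CPM (−0.68, edgeR adjusted p = 0.000292). The other members with the largest rises were Cox7c of complex IV (0.87), the accessory complex I subunits Ndufb2 (0.84) and Ndufb7 (0.77), and Atp5k, the e subunit of ATP synthase (0.75). The fit pooled the kits, and the rise of Atp5k was not seen with all of them. By its levels in the kit comparison below, the lines were about level in 5p v1, with EL4 higher in the other libraries. Cox7c had 652, 1330.2 and 4075 CPM in EL4 and 482, 711 and 1740.3 in IVA12. Among the largest falls were Ndufa9 (−0.93) and Ndufs5 (−0.87), accessory subunits of complex I. Ndufs5 had 196, 357 and 689 CPM in EL4 and 550.1, 635 and 1059.5 in IVA12. The edgeR adjusted p-values of these 6 genes lay between 2.16e-05 and 0.00052.

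Of 8 isoforms known from particular tissues, 5 passed the filter on low counts between EL4 and IVA12. Cox7b2, Cox7a1 and Cox4i2 were near 0 in EL4, and Ndufa4l2 was under 10 CPM. These 4 passed through their counts in IVA12, so their direction was set by the filter and is read as no result about the isoforms as a group. Cox7b2, an isoform known from testis, had 0.580, 0, 2.29 and 0.348 CPM in the 3p v3 libraries of EL4, 0.431 and 0 in 5p v1 and 0.266 in 3p v2. In IVA12 the values were 61.8, 21.1, 54.1 and 22.4, 40.4 and 34.2 and 21.8. At least 1 Cox7b2 UMI was found in 37.3 to 68.7% of IVA12 cells in 3p v3, 49.8 and 43.9% in 5p v1 and 23.4% in 3p v2, in up to 3.999% of EL4 cells, and in up to 1.31% of human cells, which should lack the mouse gene. The fitted log2 fold change was −6.04 (edgeR adjusted p = 8.29e-07). Cox7a1, known from heart and skeletal muscle, had at most 0.310 CPM in EL4 and 0.975, 2.14 and 5.41 in IVA12 (−4.09, edgeR adjusted p = 1.46e-06). Cox4i2, known from lung, and Ndufa4l2, known for its response to low oxygen, stayed under 10 CPM in both lines. Cox4i2 had 19, 5 and 1 UMIs in 3 EL4 libraries and 0 in the others, and 11 to 208 in each IVA12 library. Their log2 fold changes were −5.23 and −2.14, with edgeR adjusted p-values of 7.69e-06 and 0.00118. Cox6b2, Cox8b and Cox8c had under 0.2 CPM in each library of the mouse lines.

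Cox6a2, the isoform of complex IV subunit 6a known from heart and skeletal muscle, lay apart in the mouse lines with the 3′ kits and close together with 5p v1. It had 13.96, 10.2, 28.97 and 12.99 CPM in the 3p v3 libraries of EL4 and 23.5 in 3p v2. In 5p v1 it had 208 and 192. IVA12 had 219, 127, 261 and 112 in 3p v3, 224 and 198 in 5p v1 and 186 in 3p v2. EL4 was thus about level with IVA12 in the 5p v1 libraries and below it in the other 5. The share of EL4 cells with a Cox6a2 UMI was 17.3%, 12.4%, 24.6% and 12.7% in 3p v3 replicates 1 to 4, 78.3% (exact 95% interval 76.0 to 80.5%) and 78.2% (75.1 to 81.2%) in 5p v1, and 18.9% (15.4 to 22.9%) in 3p v2. The median depth of EL4 cells was 24446 and 26458 UMIs in 5p v1 and 26010 to 29442 in the other libraries. Intervals cover counting error only. In IVA12 the shares were 76.5 to 89.9%, and in human cells, which should lack the mouse gene, 0.144 to 6.77%, at median depths of 4325 to 18053 UMIs. Over all libraries edgeR gave a log2 fold change of −2.43 ± 0.58 (SE) for EL4 against IVA12 (adjusted p = 0.00345).

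**Figure D4:**
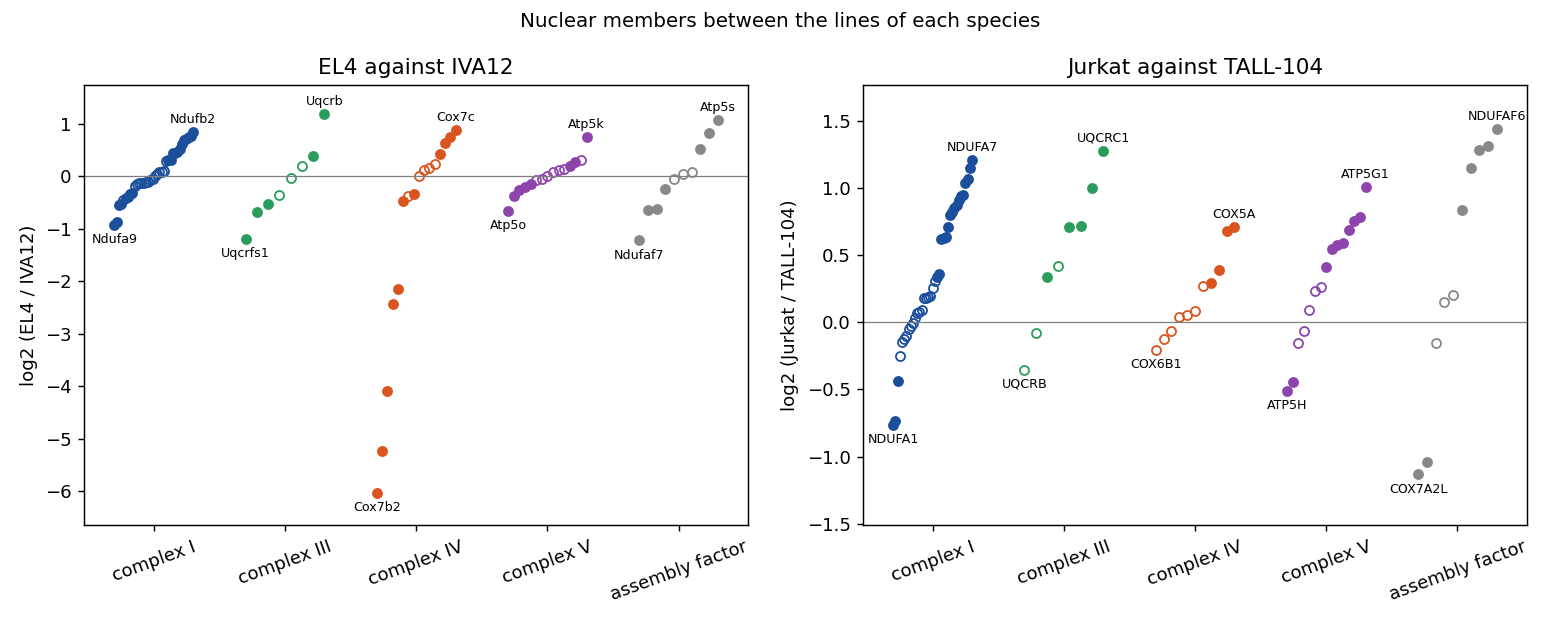
Log2 fold change of each tested nuclear member between the lines of a species (y axis), ordered by size within its complex (x axis); filled points passed an edgeR adjusted p of 0.05. In EL4 against IVA12 the lowest point of complex IV is Cox7b2 at −6.04, near 0 in EL4, whose direction was set by the filter on low counts. In Jurkat against TALL-104 most filled points lie above 0 (39 against 7).

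Between the human lines, called members were mostly higher in Jurkat. edgeR called 39 of 83 tested members higher and 7 lower than in TALL-104. Over all nuclear-encoded genes 63.2% were called and 35% were called higher, against 55.4% and 47.0% of the members. The median log2 fold change was 0.30 for members and 0.11 for all genes. Complex I had 17 members higher and 3 lower of 37, complex III 5 and 0 of 8, complex IV 4 and 0 of 11, complex V 8 and 2 of 15, and the assembly factors 5 and 2 of 10. TALL-104 cells had medians of 1918.5 to 2786 UMIs and Jurkat cells of 9839.5 to 18595. With only cells of at least 5000 UMIs, of which TALL-104 had 4 to 31 a library, 10 members were called, all higher, in a fit of the 2 libraries with at least 20 such cells (3p v3 replicates 3 and 4).

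The largest rises were in assembly factors of complex I. NDUFAF3 had a lowest, median and highest level of 203, 301 and 448 CPM in Jurkat and 64.97, 111 and 250.3 in TALL-104. It was higher in Jurkat in each library, with a log2 fold change of 1.29 ± 0.15 (SE) (edgeR adjusted p = 5.62e-07). NDUFAF6 (1.44), NDUFAF4 (1.31) and NDUFAF2 (1.15) rose too, with edgeR adjusted p-values of 4.05e-06, 1.86e-05 and 2.57e-05. NDUFAF6 had 34.5, 52.99 and 94.4 CPM in Jurkat and 12.9, 17.1 and 32.6 in TALL-104. UQCRC1, a core protein of complex III, had 115, 225 and 253 CPM in Jurkat and 49.8, 66.01 and 136 in TALL-104 (1.28 ± 0.17 (SE), edgeR adjusted p = 2.31e-06). Its range in Jurkat began within that of TALL-104, but Jurkat was above TALL-104 in each library. In those 2 libraries with only cells of at least 5000 UMIs the calls of NDUFAF6 (0.11), NDUFAF4 (1.06), NDUFAF2 (0.97) and UQCRC1 (0.82) were lost (edgeR adjusted p = 0.936, 0.174, 0.158 and 0.134), and that of NDUFAF3 was kept.

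The largest fall was that of COX7A2L, a factor that joins complexes III and IV into supercomplexes. It had 108, 108, 107 and 92.1 CPM in the 3p v3 libraries of Jurkat, 127 and 129.6 in 5p v1 and 84.99 in 3p v2. In TALL-104 it had 235, 182, 242 and 179.6, 375 and 256 and 152. No Jurkat library reached the lowest TALL-104 library, and the log2 fold change was −1.13 ± 0.14 (SE) (edgeR adjusted p = 1.55e-06). NDUFA1, an accessory subunit of complex I, had 96.4, 159 and 583 CPM in Jurkat and 174, 269 and 953 in TALL-104 (−0.77, edgeR adjusted p = 4.02e-05). ATP5H and ATP5E, the d and epsilon subunits of ATP synthase, fell by 0.51 and 0.45 (edgeR adjusted p = 0.00283 and 0.0148). With only such cells in those 2 libraries COX7A2L changed by −0.39 (edgeR adjusted p = 0.577), and NDUFA1, ATP5H and ATP5E lost their calls too (edgeR adjusted p = 0.633, 0.901 and 0.816). ATP5H also lost its call with a mitochondrial share under 5% (−0.44, edgeR adjusted p = 0.0916). ATP5E lost its call with a species share over 95% and with libraries of one preparation summed (−0.35 and −0.45, edgeR adjusted p = 0.0812 and 0.104). Without 3p v3 replicate 1 or 3, ATP5E no longer passed (edgeR adjusted p = 0.0698 and 0.054). None of the tissue-restricted isoforms passed the filter on low counts in this comparison. COX6B2, known from testis, had 0 to 23 UMIs a library in Jurkat and 0 in each library of TALL-104.

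The kits were compared within each line, with 4 libraries of 3p v3 and 2 of 5p v1, and the 3p v2 library is given beside them with no replicate check. In EL4, edgeR called 25 of 83 tested members higher and 6 lower in 3p v3, against 34.6% of all nuclear-encoded genes called and 18.4% called higher. The median log2 fold change was 0.71 for members and 0.07 for all genes. Complex I had 11 members higher and 1 lower of 36, complex III 4 and 0 of 8, complex IV 2 and 2 of 14, complex V 5 and 1 of 15, and the assembly factors 3 and 2 of 10. With 5p v1 replicate 1 or 2 left out, so that the remaining library is assumed to vary like the 3p v3 libraries, 7 and 5 members were called. Without scaling factors 49 were called.

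Atp5k, the e subunit of ATP synthase, showed the largest rise, with 548, 421, 1038 and 437 CPM in the 3p v3 libraries of EL4 and 56.7 and 41.3 in 5p v1. The 3p v2 library had 1590.3, so both 3′ kits were above 5p v1 (3.64 ± 0.61 (SE), edgeR adjusted p = 0.00497). Ndufs1, the largest core subunit of complex I, had 101, 117, 92.8 and 124 CPM in 3p v3, 32.8 and 28.8 in 5p v1 and 43.99 in 3p v2 (1.74 ± 0.15 (SE), edgeR adjusted p = 0.000817). Uqcr11 of complex III rose by 1.82, Ndufa9 by 1.82 and Ndufv1, the complex I subunit that binds NADH, by 1.76 on the log2 scale (edgeR adjusted p = 0.00957, 0.00771 and 0.00915). Their calls were lost without either 5p v1 library, and that of Atp5k without 5p v1 replicate 2 (edgeR adjusted p = 0.0727). Cox6a2 fell most (−3.58 ± 0.49 (SE), edgeR adjusted p = 0.00244), at the levels given above. Ndufa4l2, at the low levels given above, was also called lower (−2.21, edgeR adjusted p = 0.0434). Atp5g3, one of the genes for the c subunit of ATP synthase, had 524, 571, 472 and 549.9 CPM in 3p v3 and 1238 and 1036 in 5p v1 (−1.18, edgeR adjusted p = 0.00292), with 499 in 3p v2. Cox7a2l (−0.83) and Ndufa6 (−0.59), an accessory subunit of complex I, fell less, and neither call held without a 5p v1 library, nor did that of Ndufa6 without 3p v3 replicate 1, 2 or 4 (edgeR adjusted p = 0.0582, 0.0692 and 0.0638) or without the filter on low counts (0.0738).

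In IVA12 4 of 85 tested members were called higher in 3p v3 and 2 lower, against 11% of all nuclear-encoded genes called and 6% called higher. The median was 0.14 for members and 0.04 for all genes, and no member was called without 5p v1 replicate 1 or without replicate 2. Atp5k had 291, 229.6, 553 and 235 CPM in 3p v3, 54.2 and 41.7 in 5p v1 and 797 in 3p v2 (2.84, edgeR adjusted p = 0.0223). Atp5a1, the alpha subunit of ATP synthase (0.85), and Ndufs1 (0.81) were also higher (edgeR adjusted p = 0.0344 and 0.0223). The call of Atp5a1 was also lost without any one of the 3p v3 libraries (edgeR adjusted p = 0.0506 to 0.0614) and without the filter on low counts (0.0548). That of Ndufs1 was lost without 3p v3 replicate 2 and with a mitochondrial share under 5% (edgeR adjusted p = 0.0504 and 0.0893). Atp5g3 fell as in EL4, with 477, 467, 453 and 441 CPM in 3p v3 and 1518 and 1398 in 5p v1 (−1.64, edgeR adjusted p = 0.00462). The other called fall was that of Cox6a1, the ubiquitous counterpart of Cox6a2, with 504, 431, 521 and 368 CPM in 3p v3 and 1209 and 1123 in 5p v1 (−1.31, edgeR adjusted p = 0.0242). In EL4 Cox6a1 had 408, 358, 422 and 313 in 3p v3 and 536 and 438 in 5p v1, and was not called.

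In Jurkat 8 of 87 tested members were called higher and 0 lower, against 16% of all nuclear-encoded genes called and 8.07% called higher, with a median of 0.11 for members and 0.03 for all genes. The 8 were 4 of complex I, 1 each of complexes III, IV and V, and 1 read-through, antisense or copied gene. The call of complex IV was COX6B2 (4.04, edgeR adjusted p = 0.0358), which had few UMIs, as given above. It passed the filter on low counts through 3p v3, so its direction was set by that filter. In TALL-104 5 of 80 were called higher and 0 lower, against 5.3% and 2.86%, with medians of −0.01 and 0.04. In TALL-104 25 members were called with a mitochondrial share under 5%, which left the first preparation as the 3p v3 libraries with enough cells, and 9 without a filter on low counts. At an unadjusted p under 0.05, 3 members were lower in Jurkat and 7 in TALL-104, and DESeq2 called 14 and 4 members in all. ATP5I, the human counterpart of Atp5k, had 239, 190.2, 492 and 219 CPM in the 3p v3 libraries of Jurkat, 68.6 and 56.4 in 5p v1 and 1196 in 3p v2 (2.17, edgeR adjusted p = 0.0411). In TALL-104 it had 296, 241, 546 and 224, 70.5 and 65.3 and 1003 (2.32, edgeR adjusted p = 0.0133). The gene of this subunit was thus higher in 3p v3 in each of the 4 lines.

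Complex I subunits led the other human calls. NDUFA9 had 144, 66.6, 127 and 61.9 CPM in the 3p v3 libraries of Jurkat and 11.98 and 10.9 in 5p v1, with 50.5 in 3p v2 (3.14 in Jurkat and 2.18 in TALL-104, edgeR adjusted p = 0.0156 and 0.0317). In TALL-104 its call was lost with DESeq2, without scaling factors and with a species share over 95% (adjusted p = 0.0549, 0.0503 and 0.0607). NDUFB8 had 179, 79.7, 144 and 82.7 in 3p v3 and 18.3 and 16.3 in 5p v1 of Jurkat, and 218, 132, 159 and 139 against 13.2 and 0 in TALL-104 (2.82 and 4.50, edgeR adjusted p = 0.0185 and 0.00109). The second identifier of NDUFB8 held no UMI, and in 5p v1 of TALL-104 the first held 3 and 0. In TALL-104 it thus passed the filter on low counts through 3p v3. NDUFB1 rose by 2.27 and 1.99 on the log2 scale (edgeR adjusted p = 0.016 and 0.0245). The mouse counterpart Ndufb8 went the other way without being called, with log2 fold changes of −0.49 in EL4 and −0.58 in IVA12. UQCRB was called in Jurkat (1.03, edgeR adjusted p = 0.0343) and ATP5E in TALL-104 (1.74, edgeR adjusted p = 0.0327). The call of UQCRB was lost without 3p v3 replicate 1 or 3 and without the filter on low counts (edgeR adjusted p = 0.050001, 0.0626 and 0.0702), that of ATP5I in Jurkat without 3p v3 replicate 1 (edgeR adjusted p = 0.0561), and that of ATP5E in TALL-104 with a species share over 95% (edgeR adjusted p = 0.0781). Leaving out a 5p v1 library left 0 calls in Jurkat, and 1 (without replicate 1) or 0 (without replicate 2) in TALL-104. In Jurkat, 3 were called without 3p v3 replicate 1, 4 without replicate 3 and 13 without replicate 4.

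In the sums, 3p v3 lay above 5p v1 with both preparations in EL4, but above with the first and below with the second in the other lines. The log2 difference of summed nuclear members between 3p v3 and 5p v1 was 0.47 in EL4, with 0.63 for the first preparation and 0.29 for the second. In IVA12 it was −0.05, with 0.20 and −0.36. In Jurkat it was 0.10, with 0.38 and −0.25, and in TALL-104 0.13, with 0.35 and −0.14. The sum was 35279.5 ± 4858 CPM (SD, n = 4) in 3p v3 and 25467 ± 2446 (n = 2) in 5p v1 in EL4, and 32708 ± 7249 and 33836 ± 1596 in IVA12. Complex III in EL4 had the widest gap, at 4673, 3708, 5016 and 3673 CPM in 3p v3 and 2355 and 1889 in 5p v1, a log2 difference of 1.01 (1.19 and 0.80 for the preparations). In IVA12 complex III had 4869, 3804, 5344 and 3701 against 3589 and 3280.1, a log2 difference of 0.37.

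Whether the kit difference itself differed between the mouse lines was tested with an interaction term of line and kit, blocked by library, a test added after the data had been examined. The kit difference was higher in EL4 than in IVA12 for 46 of 85 tested members and lower for 2 (edgeR). Over all nuclear-encoded genes 28.6% were called and 14.1% were called higher, and the median was 0.48 for members and −0.01 for all genes. Complex I had 23 of 36 higher and 0 lower, complex III 5 of 8 and 0, complex IV 6 and 1 of 16, complex V 9 of 15 and 0, and the assembly factors 3 and 1 of 10. Without 5p v1 replicate 1 there were 32 calls, and without replicate 2 there were 17.

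Uqcr11, a small subunit of complex III, had 689, 633, 948 and 618 CPM in the 3p v3 libraries of EL4 and 234 and 165 in 5p v1, but 817, 784, 1023 and 755 and 612 and 542 in IVA12. In the 3p v2 library it had 1385 in EL4 and 1762 in IVA12, so the lines lay further apart in 5p v1 than in either 3′ kit. The interaction was 1.16 ± 0.14 (SE) on the log2 scale (edgeR adjusted p = 0.00102). Ndufv1, which binds NADH, had 169.6, 123, 165 and 118 in 3p v3 and 47.9 and 35.1 in 5p v1 of EL4, against 215, 108, 212 and 103 and 118 and 96.8 in IVA12 (1.14, edgeR adjusted p = 0.00194). Ndufb3, an accessory subunit of complex I, had 226, 177, 229 and 169.7 and 95.1 and 77.9 in EL4, against 298, 219, 297 and 199.9 and 261 and 241 in IVA12 (1.06, edgeR adjusted p = 0.000429). Uqcrc1, a core protein of complex III (1.11), and Ndufs3, a core subunit of complex I (0.91), were also higher (edgeR adjusted p = 0.00483 and 0.00382), but not without 5p v1 replicate 2 (edgeR adjusted p = 0.0665 and 0.0514). The 2 falls were Cox6a2 (−3.52 ± 0.24 (SE), edgeR adjusted p = 0.00022) and Cox7a2l (−0.57, edgeR adjusted p = 0.0319). The call of Cox7a2l was lost without 3p v3 replicate 2 or 4 and without either 5p v1 library. Kit and preparation cannot be told apart in this test either.

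For the human lines the same test called 1 of 84 members, UQCRC2, a core protein of complex III, higher in Jurkat, against 0.456% of all nuclear-encoded genes called and 0.362% called higher. UQCRC2 had 235, 157, 222 and 156 CPM in the 3p v3 libraries of Jurkat and 98.7 and 84.02 in 5p v1. In TALL-104 it had 128, 80.2, 105 and 104 and 145 and 147, so the kits were ordered oppositely in the 2 lines (1.46 ± 0.29 (SE), edgeR adjusted p = 0.0243). The call was lost with a species share over 95% and with a mitochondrial share under 5%, where the difference was 1.58 and 1.51 (edgeR adjusted p = 0.0646 and 0.111). It was also lost without 3p v3 replicate 3 and without either 5p v1 library, where TALL-104 has 76 and 41 cells. At an unadjusted p under 0.05, 12 members passed, 6 in each direction, and DESeq2 called 5.

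**Figure D5:**
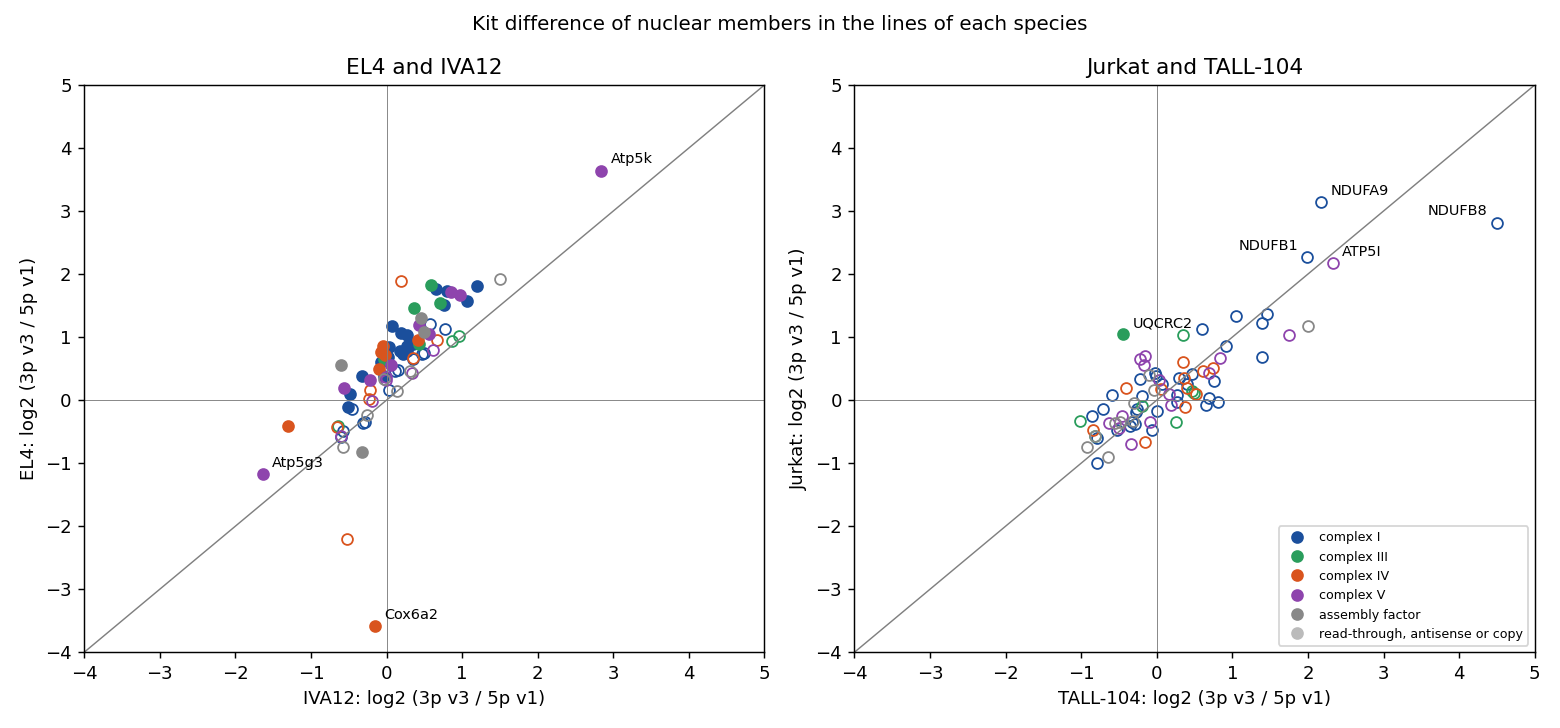
Log2 fold change of 3p v3 against 5p v1 for each nuclear member tested in both lines of a species, EL4 (y axis) against IVA12 (x axis) and Jurkat (y axis) against TALL-104 (x axis); colours mark the complexes, the diagonal marks equal kit differences and filled points passed the edgeR test of the difference between the lines. Most members lie above the diagonal in the mouse panel (46 called above, 2 below), and 1 point, UQCRC2, is filled in the human panel.

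Cells with a mitochondrial share of at least 10% were compared with those below, within each line and library, on the nuclear members, which the split did not use. In the mouse lines 4 EL4 clusters and 5 IVA12 clusters had a median share above 10%, from 13.2 to 34.3%, with Cpa3, Ptprc and H2-K1 among the leading genes in EL4 and Ctss, Gm364 and Lgmn in IVA12, so the groups also differ by cluster. The summed level of nuclear members moved little. The log2 difference, high minus low, was 0.00, 0.08, −0.08, −0.22 and 0.07 in the 5 EL4 libraries with at least 20 cells in both groups, and lay from −0.12 to 0.09 in 6 IVA12 libraries, −0.27 to 0.09 in 5 Jurkat libraries and 0.02 to 0.06 in 3 TALL-104 libraries. Within the sums, complex IV of IVA12 was higher in cells of high share in all 6 libraries, by 0.05 to 0.49, and complex V lower in all 6, by −0.20 to −0.39. Complex III was lower in all 6 as well, by −0.15 to −0.34. In EL4 complexes III and V were lower in all 5 libraries, by −0.02 to −0.70 and −0.06 to −0.54, while complex IV was higher in 4 of 5, from −0.05 to 0.22, and complex I in 3 of 5, from −0.07 to 0.38. Cells of high share held fewer UMIs in the mouse lines, with medians of 4422 to 10494 against 25339.5 to 29459.5 in EL4 and 4421.5 to 13179 against 24467.5 to 35541 in IVA12. The part of depth in the results below was examined only with a limit of at least 5000 UMIs per cell in both groups. Under that limit no called member named below in EL4 or IVA12 lost its call. Beyond it the part of depth was not tested.

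In EL4 edgeR called 1 of 81 tested members higher and 37 lower in cells of high share, with a median of −0.54 (−0.01 over all genes), whereas without scaling factors 9 were called higher and 4 lower with a median of −0.13, so the direction of the group as a whole depends on the scaling. Over all nuclear-encoded genes 31.3% were called and 16.4% were called higher. With the scaling factors complex I had 1 member higher and 16 lower of 36, complex III 0 and 5 of 8, complex IV 0 and 2 of 12, complex V 0 and 10 of 15, and the assembly factors 0 and 4 of 10. The counts of calls were 14, 24, 16 and 13 without 3p v3 replicate 3, 3p v3 replicate 4, 5p v1 replicate 1 and 5p v1 replicate 2. Ndufa13, an accessory subunit of complex I, was the only member called higher. It had 544, 1966, 463, 734 and 592 CPM in cells of high share in 3p v3 replicates 1, 3 and 4 and 5p v1 replicates 1 and 2, against 401, 429.8, 268, 226 and 170.1 in the others, so it was higher in all 5 libraries (0.95 ± 0.24 (SE), edgeR adjusted p = 0.00834, or 0.0514 without 3p v3 replicate 3). Cox6a1 and Ndufc2 were not called higher, but lay above the other cells in each library except 3p v3 replicate 1. In the same order of libraries Cox6a1 had 389, 887, 487, 1437 and 1252 against 408, 422, 313, 536 and 438 CPM. Ndufc2 had 362, 1108, 259, 756 and 555 against 375, 330, 206, 242 and 185. Atp5g1, another gene for the c subunit of ATP synthase, fell most, with 1154, 829, 768, 389.9 and 412 against 1163, 1133, 1038, 885 and 795 CPM (−1.03 ± 0.27 (SE), edgeR adjusted p = 0.00956). Its call was lost without 5p v1 replicate 2 (edgeR adjusted p = 0.0513). Atp5g1 was lower in all 5 libraries, with the smallest gap in 3p v3 replicate 1. In that library a cluster of 96 barcodes nearest to EL4, with a median mitochondrial share of 42.3%, stayed unnamed and is not among its 51 cells of high share. With unnamed clusters taken with their nearest line 58 members were called. Atp5e (−1.02), Uqcrq (−1.002), the zinc-binding complex I subunit Ndufs6 (−0.87) and the core subunit Ndufv2 (−0.83) fell too, with edgeR adjusted p-values from 0.00432 to 0.0102. Atp5e was lower in 4 of the 5 libraries and higher in 3p v3 replicate 1, at 712 against 648 CPM. Ndufv2 lost its call without scaling factors (−0.40, edgeR adjusted p = 0.0818) and with a high group of 10% to under 20% (−0.66, edgeR adjusted p = 0.0556). With that high group 9 members were called, and with the groups divided at 5% 1 was called, where Ndufa13 changed by 0.09 and Atp5g1 by −0.08 (edgeR adjusted p = 0.315 and 0.422).

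In IVA12 9 of 81 tested members were called higher and 21 lower, against 41.8% of all nuclear-encoded genes called and 21.3% called higher. The median was −0.14 for members and −0.06 for all genes, and without scaling factors the split was 11 and 18. Complex I had 5 members higher and 8 lower of 36, complex III 0 and 4 of 8, complex IV 3 and 1 of 13, complex V 0 and 8 of 15, and the assembly factors 1 and 0 of 9. Cox6a1 had 1015, 1386, 794, 1895, 2030.1 and 2163 CPM in cells of high share of 3p v3 replicates 1, 3 and 4, 5p v1 replicates 1 and 2 and 3p v2, against 504, 521, 368, 1209, 1123 and 676 in the others. It was higher in all 6 libraries (1.05 ± 0.14 (SE), edgeR adjusted p = 5.79e-06). Ndufa13 was higher in all 6 as well, with 507, 583, 368, 226, 243 and 878 against 258, 268, 160.0, 199, 175 and 243 CPM (0.95 ± 0.16 (SE), edgeR adjusted p = 0.000105). Ndufc2 (0.64), Cox6a2 (0.56) and Ndufs4 (0.55), an accessory subunit of complex I, rose by less. In 5p v1 replicate 1 Cox6a2 was slightly lower in cells of high share, at 219 against 224 CPM. Atp5e had 645, 487, 433, 501, 438 and 617 against 763, 923, 728, 564, 504 and 1535 CPM and was lower in all 6 libraries (−0.68 ± 0.15 (SE), edgeR adjusted p = 0.000962). Ndufb10 (−0.66), Uqcrq (−0.61), Ndufv3 (−0.60) and Atp5o, the subunit that ties the stalk of ATP synthase to its head (−0.59), followed. With a high group of 10% to under 20% only, 1 member was called, and with the groups divided at 5%, 0 were called.

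In the human lines no nuclear member was called, and many cells lay near the limit between the groups, as 27.1 to 37.2% of TALL-104 cells in the 3 libraries compared had shares from 9 to 11%. In Jurkat 0 of 84 tested members passed, against 0.18% of all nuclear-encoded genes called and 0.0378% called higher, with 2 members at an unadjusted p under 0.05 and 0 called by DESeq2. In TALL-104 0 of 78 passed, against 0.862% and 0.292%, with 3 members at an unadjusted p under 0.05 and 0 by DESeq2. The medians were −0.16 in Jurkat and 0.03 in TALL-104.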

How the data were processed

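Single-cell 3′ and 5′ libraries of the mixed lines were analysed from deposited UMI counts per gene and barcode. According to the methods and the submitters' processing notes, the authors downsampled reads per library, aligned and counted them with Cell Ranger 3.0.2 on a combined hg19 and mm10 reference (1.2.0) and deposited the raw counts for all barcodes without calling cells. Because reads were downsampled by the authors, depth here is not that of the original sequencing. 3p v2 replicate 1 was not analysed here. The members and gene lists were chosen with earlier results of these data known.

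Barcodes with at least 1000 UMIs and over 80% from one species were clustered per library and species (scanpy 1.11.5, igraph 0.11.9, 1000 variable genes, 15 components, 15 neighbours, resolution 0.5) and named from marker genes. The 80% limit removed doublets between species only where neither species held more than 80% of the UMIs. Doublets within a species were not called. Counts were summed per line and library for cells under a mitochondrial share of 10%, with at least 20 cells a sum, and tested with edgeR 4.0.16 (R 4.3.3): quasi-likelihood test, filterByExpr, library sizes and TMM factors from nuclear-encoded genes, Benjamini-Hochberg adjustment over all genes, called at an adjusted p under 0.05. Lines and mitochondrial-share groups were compared with the library as a block. Levels are UMIs per 1000000 nuclear-encoded UMIs (CPM) without TMM factors. The log2 differences between preparations used a pseudocount of 0.5 CPM. Shares of cells carry exact (Clopper-Pearson) 95% intervals, which like all counts here cover counting error only. DESeq2 1.42.0, other filters, scalings and cell limits, and each library left out in turn were tried as alternatives. The fits were tested on simulated counts. In each comparison the 5 nuclear members with the largest rise and the 5 with the largest fall among those called, at a mean of at least 50 CPM in either group, are named, with every mitochondrial member, the highest member of each complex, tissue-restricted isoforms and the 2 largest changes of each related list. One gene that this rule names is not reported here.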

Additional observations from a re-analysis of the deposited data

Results flagged for a closer look

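Of 76 groups of 4 3p v3 libraries examined, 6 held a library that stood apart from the others by Dixon's criterion, which chance meets in about 1 in 20 groups. In TALL-104, MT-CYB took 9.76% of mitochondrial UMIs in replicate 1 against 7.26 to 7.61% in the others, MT-ND3 took 10.7% in replicate 3 against 5.56 to 6.21%, and MT-ND4L 0.529% in replicate 3 against 0.163 to 0.206%. In Jurkat MT-ND5 took 1.97% in replicate 3 against 1.54 to 1.58%, in EL4 mt-Co3 took 18.6% in replicate 1 against 15.7 to 15.8%, and in IVA12 mt-Nd4l took 2.35% in replicate 3 against 0.613 to 0.892%. Replicate 3 was the library that stood apart in 4 of the 6.

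The difference between 3p v3 and 5p v1 was itself unequal between EL4 and IVA12 for 48 nuclear members, by the edgeR interaction test. On the log2 scale the named differences were 1.16 for Uqcr11, 1.14 for Ndufv1, 1.11 for Uqcrc1, 1.06 for Ndufb3, 0.91 for Ndufs3, −3.52 for Cox6a2 and −0.57 for Cox7a2l. Between Jurkat and TALL-104 it was unequal for 1 member, UQCRC2, at 1.46.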

How the results depend on the processing

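Counts of called nuclear members were recomputed under each alternative. Without the library block they were 16 for EL4 against IVA12, 26 for Jurkat against TALL-104, 0 and 2 for the mitochondrial share in EL4 and IVA12, and 2 and 0 for the kit difference in the mouse and human lines. With cells of at least 5000 UMIs, Jurkat against TALL-104 gave 10. Without TMM factors the kit comparison gave 49 in EL4 and 10 in IVA12, and the mitochondrial share in EL4 gave 13. DESeq2 gave 12 and 14 for the kits in IVA12 and Jurkat, and 5 for the human kit difference. With a mitochondrial share under 5%, the kits gave 13 in Jurkat and 25 in TALL-104, and the human kit difference 0. Cells under 5% were too few in both second-preparation libraries of TALL-104 and in 3p v3 replicate 2 of Jurkat, and those over a species share of 95% in 3p v3 replicate 3 of TALL-104. A species share over 95% gave 3 for the kits in TALL-104 and 0 for the human kit difference, and no filter on low counts gave 9 in TALL-104. For the mitochondrial share, a high group of 10 to under 20% gave 9 in EL4 and 1 in IVA12, a division at 5% gave 1 and 0, and unnamed clusters taken with their nearest line, an alternative chosen after seeing the data, gave 58 in EL4. Dividing at 5% also turned Atp5e in EL4 (0.0466) and Cox6a2 (−0.0528) and Ndufs4 (−0.0387) in IVA12. The cause was not tested in any of these. Leaving out a library in turn gave 46 to 53 for EL4 against IVA12, 36 to 48 for Jurkat against TALL-104, 5 to 38, 0 to 5, 0 to 13 and 0 to 7 for the kits in EL4, IVA12, Jurkat and TALL-104, 13 to 48 and 26 to 37 for the mitochondrial share in EL4 and IVA12, 0 in Jurkat and TALL-104, and 17 to 51 and 0 to 1 for the kit difference. The 68 calls of named genes, a gene being counted once in each comparison that names it, were recomputed 1143 times in all. Leaving out a library kept the call 358 times and lost it 64 times with none turned, and the other alternatives kept it 641 times, lost it 77 times and turned it 3 times. TALL-104 had too few cells of at least 5000 UMIs for the kits and the mitochondrial share. For the kits no paired analysis was possible, because the replicate numbers follow the order of deposit and pair no libraries across kits. TALL-104 had the lowest depth per cell of the lines: its cells had medians of 1918.5 to 2786 UMIs, and 5p v1 held 76 and 41 of them.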

Other observations

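Other mitochondrial genes outside the rule were followed in the same edgeR fits, as lists chosen with earlier results of these data known. Between EL4 and IVA12, where 77% of all nuclear-encoded genes were called and 38.1% were called higher, protein import had 2 higher and 9 lower of 16 tested, the mitochondrial DNA and RNA machinery 4 higher and 12 lower of 20 and assembly factors outside the rule 6 higher and 14 lower of 24. The share of genes called in these 3 lists was near that of all genes. Ppargc1a, a coactivator of respiration genes, was found at 9.93 to 30.9 CPM in EL4 and 0 to 1.73 in IVA12, and its log2 fold change was 5.39 ± 0.48 (SE) (edgeR adjusted p = 3.97e-06). It was near 0 in IVA12 and passed the filter on low counts through EL4, so its direction was set by that filter. Myc went the other way, at 43.6 to 94.4 against 151 to 639 CPM (−2.19, edgeR adjusted p = 7.57e-07). The list of nuclear regulators had 6 higher and 2 lower of 9, with Ppargc1a among the 6. Pdha1, the E1 alpha subunit of pyruvate dehydrogenase (2.25), and Mpc1 of the mitochondrial pyruvate carrier (1.90) led the list of the tricarboxylic acid cycle and pyruvate dehydrogenase (7 higher and 4 lower of 18). The largest changes in the first 3 lists were Timm8b (−1.24) and Tomm7 (−0.97), Tfb2m (−1.18) and Elac2 (−1.07), and Lyrm7 (1.82) and Ttc19 (−1.54). Complex II and cytochrome c had 3 higher and 0 lower of 5, redox enzymes 3 higher and 1 lower of 6 and carriers 3 higher and 1 lower of 8.

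Between Jurkat and TALL-104 63.2% of all nuclear-encoded genes were called and 35% were called higher in Jurkat. In the same lists protein import had 12 higher and 2 lower of 15, the DNA and RNA machinery 12 higher and 2 lower of 20, assembly factors outside the rule 12 higher and 2 lower of 24, carriers 5 higher and 0 lower of 9, redox enzymes 3 higher and 0 lower of 6, complex II and cytochrome c 2 higher and 0 lower of 5, regulators 4 higher and 1 lower of 8 and the tricarboxylic acid cycle 8 higher and 4 lower of 18. SLC25A4, an ADP/ATP carrier of the inner membrane, had 38.97 to 110.1 CPM in Jurkat and 4.33 to 16.3 in TALL-104 (3.05 ± 0.20 (SE), edgeR adjusted p = 1.36e-10). MYC was higher in Jurkat, at 107 to 381 against 21.7 to 115 CPM (1.83, edgeR adjusted p = 4.19e-08). DLST, the E2 subunit of oxoglutarate dehydrogenase, was lower (−1.28) and DLAT, the E2 subunit of pyruvate dehydrogenase, higher (1.61).

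Between the kits, Sco2, a copper chaperone of complex IV, was higher in 3p v3 in EL4 (5.51, edgeR adjusted p = 0.000282) and IVA12 (3.56, edgeR adjusted p = 0.00271). Timm23, the channel of the inner membrane translocase, had 3.36 to 11.2 CPM in the 3p v3 libraries of EL4 and 286 to 305 in 5p v1 (−5.51, edgeR adjusted p = 0.000947), and changed by −5.17 in IVA12. Human TIMM23 went the other way in Jurkat (2.33, edgeR adjusted p = 0.0247). In EL4 the tricarboxylic acid cycle list had 11 higher and 2 lower of 18, against 0 higher and 0 lower of 18 in IVA12, and the test of the kit difference between these lines gave 12 higher and 3 lower of 18. Over all nuclear-encoded genes 34.6% were called in EL4, 11% in IVA12 and 28.6% in the test of the kit difference. Of the other lists in EL4, import had 4 higher and 3 lower of 16, the DNA and RNA machinery 6 higher and 2 lower of 20 and assembly factors 6 higher and 1 lower of 24. In cells of high mitochondrial share, import had 0 higher and 10 lower of 16 in EL4 and 0 higher and 9 lower of 16 in IVA12, and carriers 0 higher and 7 lower of 8 and 0 higher and 6 lower of 8, against 31.3% and 41.8% of all genes called. The counts of these lists are given with scaling factors only, and the direction of the respiratory members in EL4 depended on those factors.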
